A study of Homo sapiens with 2 samples.

Results

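Genes named LINC are long noncoding RNA genes that carry a systematic symbol because no function or neighbour gave them another name. In the deposited table, 86 of 14914 listed features had a symbol that starts with LINC and does not end in an antisense suffix, and these 86 genes are described here. Their RNA was measured by RNA immunoprecipitation sequencing in HUH7, an established line of human hepatocellular carcinoma cells. The IP group was 1 library of RNA recovered with CSTF2, and the Input group was 1 library of RNA from the same line. The labels give no treatment, genotype change or time point for either library. There are no replicates, so no test was made, and every interval below covers counting error only.

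CSTF2 (CstF-64) contacts RNA within the cleavage stimulation factor. That complex binds downstream of the cleavage site, beside a second complex that reads the hexamer AAUAAA, and together they set where a transcript is cut and polyadenylated. Most long intergenic noncoding RNAs are made by RNA polymerase II, spliced and polyadenylated like mRNAs. They tend to be made at low levels and in few tissues, and many stay in the nucleus. Some have later been found to encode a small protein and were renamed.

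Assigned reads came to 3220045 for the IP and 9517885 for the Input. All 13 hepatocyte markers examined, ALB and AFP among them, were listed, with a summed level of 809.7 RPKM in IP RNA and 811.8 RPKM in Input RNA. Of the blood markers 2 of 5 were listed, with summed levels of 3.83 RPKM in IP RNA and 2.12 RPKM in Input RNA, and PTPRC was not among them. Of the stromal markers 2 of 4 were listed, at 6.78 RPKM in IP RNA and 8.49 RPKM in Input RNA, and of the endothelial markers none of 3. The mRNA of CSTF2 itself had 486.9 RPKM in IP RNA and 6.97 RPKM in Input RNA. RPKM scales reads to exon length and library depth, so it can be compared between genes of different length.

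The label intergenic held for part of the 86 genes. In GENCODE v29 on GRCh38, 81 of them could be placed, on 22 chromosomes, and 5 could not. The symbol of those 5 led to no single gene, and no synonym led to a gene of equal exon length. Of the 81, 55 are typed as lincRNA, 22 as other noncoding classes such as antisense or transcribed pseudogene, and 4 as protein-coding. The protein-coding ones are LINC00998, now SMIM30, LINC00493, now SMIM26, LINC00094, now BRD3OS, and LINC01314, now CTXND1. Exons of 40 genes share bases with an exon of another gene, 16 of them with a coding gene. By contrast, 39 of the 81 neither share exon bases nor overlap the span of a coding gene, where coding genes named only by a clone were left out. The labels do not say that strand was kept, so it is not known whether reads of overlapping genes were told apart. LINC01270 and LINC01271, for example, share 1333 exon bases on opposite strands of chromosome 20. Both list 4 IP reads and 16 Input reads, and whether these are the same reads was not tested.

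The LINC-named genes were scarce in both libraries. Their median level, averaged over the 2 libraries, was 0.532 RPKM, against 1.75 RPKM over all features. The median gene had 18 reads over both libraries, 46 of the 86 had fewer than 20, and 10 had at least 100. Together they took 1283 IP reads and 2820 Input reads, which is 0.0398% of the IP (95% Wilson interval 0.0377 to 0.0421) and 0.0296% of the Input (0.0286 to 0.0307). The ratio of these shares was 1.34 (1.26 to 1.44). Mitochondrially encoded features took 61.8% of all IP reads and 61.6% of all Input reads, which lowers these shares and the RPKM values in both libraries. The 5 genes with the most Input reads, LINC00261, LINC01419, LINC00958, LINC01184 and LINC00467, held 34.2% of the IP reads and 47.5% of the Input reads of the group, with a ratio of 0.968 between them. The ratio over the other 81 genes was 1.69. The 5 were picked by their Input reads, which favours a low ratio for them and a higher one for the rest.

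How a gene came to be listed matters for these summed ratios. Every feature of the table reached at least 1 CPM, a read number scaled to library depth, in one of the libraries, which takes 4 IP reads or 10 Input reads. Of the LINC-named genes 39 (45.3%) reached it in the IP only, 43 (50%) in both libraries and 4 (4.65%) in the Input only. Over all features these shares were 13.3%, 80.7% and 6.02%. A gene that reached 1 CPM in the IP only had to be higher there: all 39 had a ratio above 1, on 4 to 12 reads in the IP and 0 to 9 in the Input. The 43 genes with 1 CPM in both libraries carry no such condition. They sum to 1046 IP reads and 2624 Input reads, a ratio of 1.18 (1.10 to 1.27), and 1.06 without LINC-PINT and LINC00506. Those genes have the highest ratios of the 43, and no gene with a low ratio was left out. The value of 1.06 therefore had to be the lower one.

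**Figure D1:**
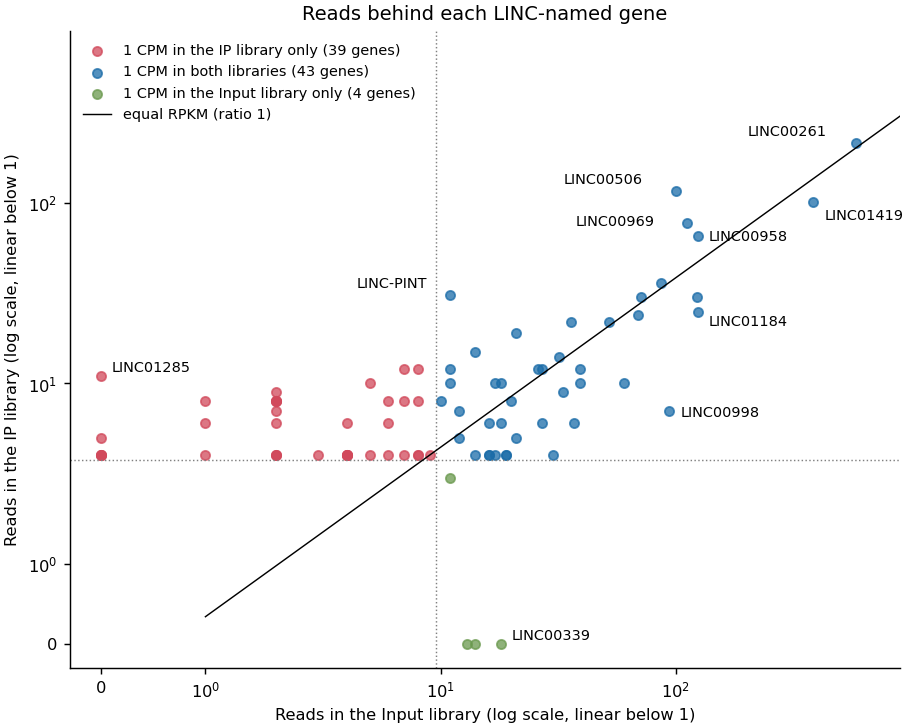
Reads of each of the 86 LINC-named genes in the IP library (vertical axis) and the Input library (horizontal axis), both on a log scale that is linear below 1. Colours give the library or libraries in which the gene reached 1 CPM, dotted lines mark that limit, and the solid line marks equal RPKM: all 39 genes that reached it in the IP only lie above the line, and the other 47 lie on both sides.

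Among the 43 genes with 1 CPM in both libraries, the median RPKM ratio of IP over Input was 1.11, and it was 1.18 over the 12037 features of the table with 1 CPM in both. Of the 43, 8 (18.6%) had an IP level of at least 2-fold the Input level, as did 17.9% of all such features. In the other direction 4 (9.30%) were at least 2-fold lower, against 8.45% of all such features. In this set both shares lie near the background. The 8 higher genes were LINC-PINT, LINC00506, LINC00216, LINC01128, LINC00857, LINC00662, LINC00863 and LINC00969, with ratios of 8.33 to 2.06. The 4 lower genes were LINC00998, LINC01296, LINC00680 and LINC00152, with ratios of 0.220 to 0.493. Some of these 12 genes were named after their values were seen. The intervals of LINC01296 (0.101 to 1.12), LINC00680 (0.165 to 1.15) and LINC00863 (0.811 to 6.65) include 1. A near-identical stretch in a gene elsewhere was found for 11 of 84 LINC-named genes checked. LINC01296, LINC00680, LINC00863 and LINC00152 are among them, so their reads may be shared, while LINC-PINT and LINC00969 were not checked. The counting interval lay above 1 for 9 of the 43, below 1 for 4, and included 1 for 30. These calls were not counted over the 12037 features, whose median of 1.18 also lies above 1, so they have no background here. Even read numbers outnumbered odd ones in the table, so intervals were also taken from read numbers divided by 2, and then lay above 1 for 3 genes, LINC-PINT, LINC00506 and LINC00969, and below 1 for LINC00998 alone.

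The filter on level gives a smaller set. A mean of at least 1 RPKM was reached by 25 of the 86 genes, and 61 did not reach it. On the scale log2((IP + 1)/(Input + 1)) of RPKM, 5 of the 25 (20%) stood at least 2-fold above the Input, against a background of 9.88% of 9880 features. They were LINC-PINT, LINC00506, LINC00216, LINC01389 and LINC01336. The filter is a mean of both libraries, so a gene low in the Input can pass it through its IP level. LINC-PINT, with 0.256 RPKM in Input RNA, and LINC01389, with 0.435 RPKM, passed in this way, which favours a call as higher. With the same filter the share was 18.75% of 160 genes named as antisense to another and 25.1% of 1381 genes named only by a clone. It was 5.75% of 7763 protein-coding genes, so the 20% is not particular to LINC-named genes. Without the filter, 7 of the 86 genes stood at least 2-fold above the Input on this scale, against 7.63% of all features. LINC01389 and LINC01336, chosen after their values were seen, rest on 8 IP reads each, with 2 and 8 Input reads, and both reached 1 CPM in the IP only. One of the 25 (4.0%), LINC00998, was at least 2-fold lower, against a background of 6.83%. The other 19 lay within 2-fold. The median of the 25 on that log2 scale was 0.23, where that of all features was 0.17.

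**Figure D2:**
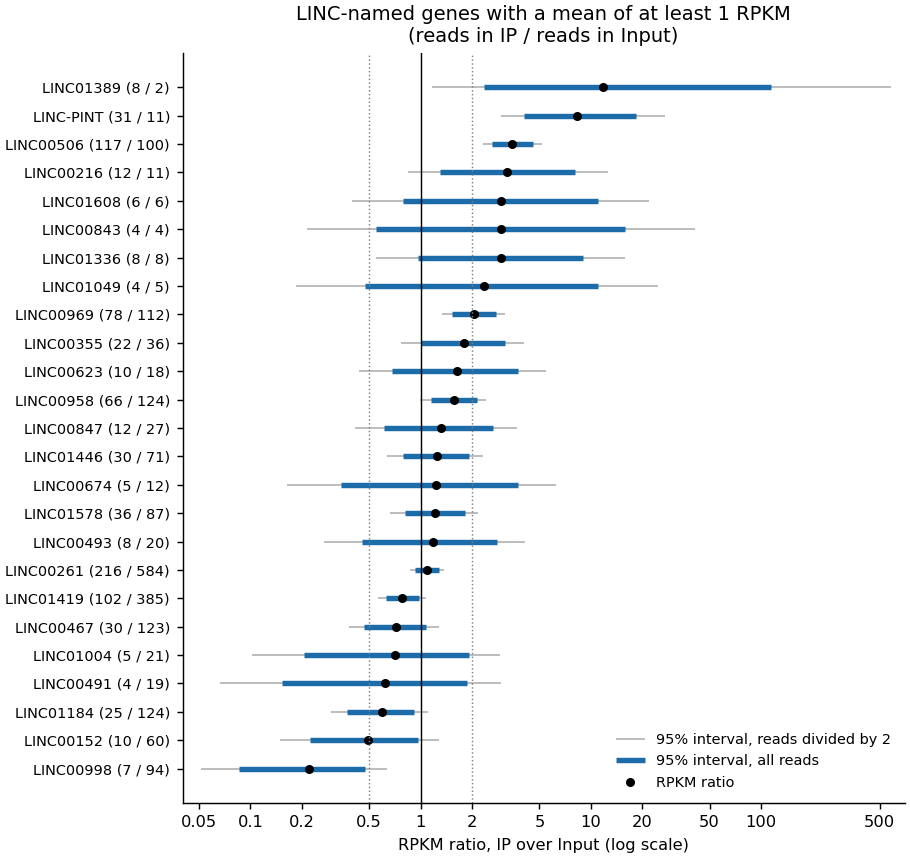
RPKM ratio of IP over Input (log scale) for the 25 LINC-named genes with a mean of at least 1 RPKM, with the reads of each gene in IP and Input after its name. Thick bars are 95% counting intervals from all reads, thin bars from read numbers divided by 2, and dotted lines mark 2-fold; both bars of LINC-PINT, LINC00506 and LINC00969 lie above 1, as do those of LINC01389, and both bars of LINC00998 lie below 1.

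LINC00506 was the higher gene with the most reads. It had 7.25 RPKM in IP RNA, from 117 reads, and 2.10 RPKM in Input RNA, from 100 reads. The ratio was 3.46 (2.63 to 4.56). By RPKM it ranked 3rd of the 86 genes in IP RNA and 7th in Input RNA. The gene is a lincRNA on the plus strand of chromosome 3, from 87089129 to 87157069, with no exon shared with another gene. Its nearest coding gene is CHMP2B, which encodes a subunit of the ESCRT-III membrane-remodelling complex, 70202 bases away on the same strand. CHMP2B had 100.1 RPKM in IP RNA and 76.9 RPKM in Input RNA, a ratio of 1.30 (1.21 to 1.40), whose interval does not overlap that of LINC00506.

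LINC-PINT, a p53-induced noncoding RNA described as a partner of the Polycomb complex PRC2 and as a source of a micropeptide, had the highest ratio of the 43. It had 2.13 RPKM in IP RNA and 0.256 RPKM in Input RNA, from 31 and 11 reads. The ratio was 8.33 (4.08 to 18.4). By RPKM it ranked 12th in IP RNA and 54th in Input RNA. GENCODE v29 gives its symbol to more than 1 gene, so it is not placed here. LINC00969, listed as MIR570HG in RefSeq, had 1.38 RPKM in IP RNA and 0.669 RPKM in Input RNA, from 78 and 112 reads, a ratio of 2.06 (1.52 to 2.77). It is a long model of 17599 bases, and on the scale with a pseudocount of 1 RPKM it lay at 0.51, within 2-fold.

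LINC00216 had 3.31 RPKM in IP RNA and 1.03 RPKM in Input RNA, from 12 and 11 reads, a ratio of 3.22 (1.30 to 8.07). It is a single-exon gene on the plus strand of chromosome 14, from 58288033 to 58289158, inside ARMH4 and sharing 96 bases with the oppositely oriented PSMA3-AS1. PSMA3-AS1 had 87 IP reads and 143 Input reads, so shared reads could be part of its value, which was not tested. LINC00355 had 3.64 RPKM in IP RNA and 2.01 RPKM in Input RNA, a ratio of 1.81 (1.01 to 3.15). LINC00662 had 0.741 RPKM in IP RNA and 0.277 RPKM in Input RNA, from 19 and 21 reads, a ratio of 2.67 (1.36 to 5.23), and did not reach the level filter. LINC00623 and LINC00847, with 10 and 12 IP reads, had ratios of 1.64 and 1.31 and intervals that include 1.

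LINC00998 was the lowest of the 43. It had 1.15 RPKM in IP RNA and 5.21 RPKM in Input RNA, from 7 and 94 reads, and was 4.54-fold lower in the IP (2.12 to 11.6). By RPKM it ranked 26th in IP RNA and 3rd in Input RNA. The transcript encodes SMIM30, a small integral membrane protein, so the clearest low value among LINC-named genes belongs to an mRNA by current annotation. The gene lies on the minus strand of chromosome 7, from 113116718 to 113118613. The other 3 genes typed as protein-coding were LINC00493, LINC00094 and LINC01314. Their ratios were 1.18, 0.758 and 1.25, with intervals that include 1. LINC00094 shares 1281 exon bases with BRD3, a gene for a BET-family chromatin reader on the opposite strand. BRD3 had a ratio of 2.14 (1.80 to 2.56), and the interval of LINC00094 was 0.337 to 1.55.

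LINC00152, now CYTOR, is a cytoplasmic RNA described as raised in several cancers. It had 0.899 RPKM in IP RNA and 1.82 RPKM in Input RNA, from 10 and 60 reads, and was 2.03-fold lower in the IP. Its ratio was 0.493 (0.225 to 0.970). Its transcripts match those of MIR4435-2HG over 2237 bases at 99.3% identity, so reads of these 2 genes cannot be told apart with certainty. MIR4435-2HG had 3.47 RPKM in IP RNA and 2.47 RPKM in Input RNA, a ratio of 1.40 (1.09 to 1.80). LINC01184 had 1.20 RPKM in IP RNA and 2.02 RPKM in Input RNA, from 25 and 124 reads, a ratio of 0.596 (0.371 to 0.921). LINC01004 and LINC00491 had ratios of 0.704 and 0.622 on 5 and 4 IP reads, and their intervals include 1.

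LINC01419 and LINC00261 had the highest levels in both libraries. LINC01419, described in hepatocellular carcinoma and located on chromosome 8, came first, with 20.8 RPKM in IP RNA and 26.6 RPKM in Input RNA, from 102 and 385 reads. Its ratio was 0.783 (0.623 to 0.977). LINC00261, an endoderm RNA transcribed beside FOXA2, was next, with 12.1 RPKM in IP RNA and 11.1 RPKM in Input RNA, from 216 and 584 reads. Its ratio of 1.09 (0.931 to 1.28) rests on the most reads among the 86 genes. It shares 4779 exon bases with the clone-named gene AL121722.1 on the same strand. LINC00958 had 7.14 RPKM in IP RNA and 4.54 RPKM in Input RNA, from 66 and 124 reads, a ratio of 1.57 (1.15 to 2.14). LINC00467, described as a source of a mitochondrial microprotein, had 2.09 RPKM in IP RNA and 2.91 RPKM in Input RNA, a ratio of 0.721 (0.467 to 1.08). LINC01446 had 2.67 RPKM in IP RNA and 2.14 RPKM in Input RNA, a ratio of 1.25 (0.787 to 1.94).

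**Figure D3:**
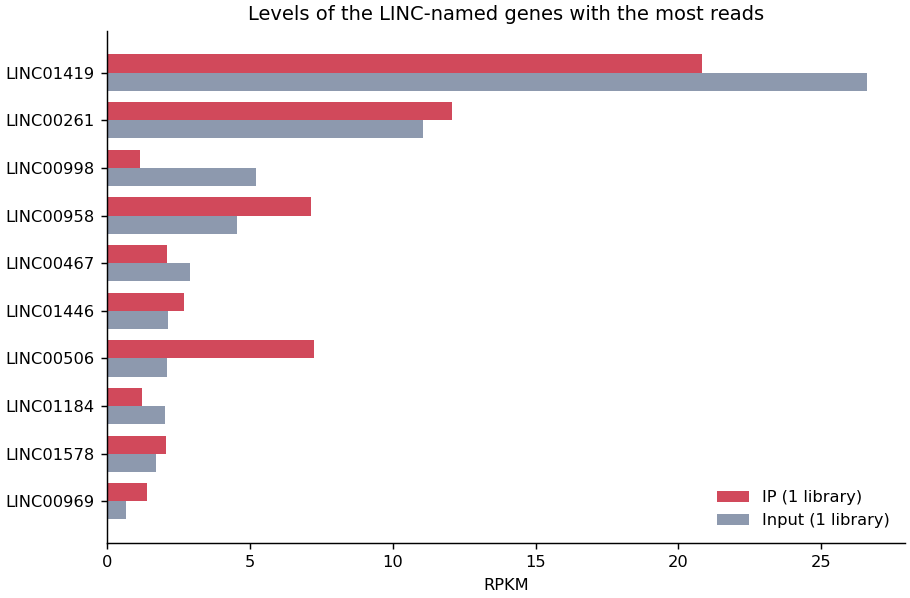
Level in RPKM (horizontal axis, linear from 0) of the 10 LINC-named genes with at least 100 reads, in the IP library (red) and the Input library (grey), 1 library each. LINC00506 stands at 7.25 RPKM in IP RNA and 2.10 RPKM in Input RNA, LINC00998 at 1.15 RPKM in IP RNA and 5.21 RPKM in Input RNA, and LINC01419 and LINC00261 are the highest in both.

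Values of a nearby coding gene are given here for some LINC-named genes. LINC00261, on the minus strand of chromosome 20 from 22547671 to 22578642, lies 2363 bases from FOXA2, a transcription factor of endoderm and liver, on the same strand. FOXA2 had 17.8 RPKM in IP RNA and 10.98 RPKM in Input RNA, a ratio of 1.62 (1.32 to 1.98), and its interval does not overlap that of LINC00261 with all reads. With read numbers divided by 2, the upper bound of LINC00261 reaches 1.37, past the lower bound of FOXA2. LINC01578, now CHASERR, whose mouse counterpart restrains the neighbouring Chd2, had 2.07 RPKM in IP RNA and 1.69 RPKM in Input RNA, a ratio of 1.22 (0.805 to 1.82). CHD2, which encodes a chromatin remodeller and lies 488 bases away on the same strand, had 6.65 RPKM in IP RNA and 2.54 RPKM in Input RNA, a ratio of 2.62 (2.27 to 3.02). LINC00958 lies 17359 bases from TEAD1, a transcription factor of the Hippo pathway, which had a ratio of 0.815 (0.580 to 1.13). Over 26 LINC-named genes whose nearest coding gene was also listed with 1 CPM in both libraries, the LINC-named gene had the higher ratio in 13 pairs and the lower in 13.

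An annotated 3′ end is shown for each of 7 noncoding genes with at least 100 reads, because CSTF2 acts at that end of a transcript. Each line is the last 50 bases of the longest transcript in GENCODE v29, 5′ to 3′ on the strand of the gene, and capitals mark the polyadenylation hexamer AATAAA.
LINC00506: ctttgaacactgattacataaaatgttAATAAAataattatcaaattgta
LINC00261: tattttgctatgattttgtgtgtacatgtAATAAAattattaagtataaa
LINC00467: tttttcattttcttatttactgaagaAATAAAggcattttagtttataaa
LINC01446: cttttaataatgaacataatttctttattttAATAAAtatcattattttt
LINC01578: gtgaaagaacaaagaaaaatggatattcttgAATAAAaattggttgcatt
LINC00958: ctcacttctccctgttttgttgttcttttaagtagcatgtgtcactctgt
LINC01184: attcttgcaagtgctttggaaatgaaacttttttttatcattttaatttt
On GRCh38 these stretches are chr3:87098653-87098702 on the plus strand for LINC00506, chr20:22560553-22560602 on the minus strand for LINC00261 and chr1:211435284-211435333 on the plus strand for LINC00467. That of LINC01446 is chr7:53655509-53655558 on the minus strand and that of LINC01578 is chr15:92899652-92899701 on the plus strand. The stretch of LINC00958 is chr11:12979535-12979584 and that of LINC01184 is chr5:128021528-128021577, both on the minus strand. The annotated spans of LINC00506, LINC00261, LINC00958 and LINC01184 extend past these stretches, and ends of their other transcripts were not read. In the first 5 the hexamer ends 13 to 18 bases before the transcript end, and the last 2 hold neither AATAAA nor ATTAAA in this window. LINC00958, with no hexamer in this window, had a ratio of 1.57 and LINC01184, also with none there, 0.596. The 5 shown with AATAAA ran from 0.721 in LINC00467 to 3.46 in LINC00506. Each ratio is for the whole gene and not for the printed transcript. The ends of LINC01419 and LINC00998, also with many reads, are not printed. They hold AATAAA and ATTAAA, and these genes had ratios of 0.783 and 0.220.

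Over all placed genes, AATAAA or ATTAAA, read on the transcript strand only, stood in the last 50 bases of the longest transcript in 53 of 81 (65.4%). The same search found it in 76.7% of protein-coding genes of the table and in 63.5% of 85 other lincRNA-type genes. Among genes with 1 CPM in both libraries, the median ratio was 1.09 for the 29 with a hexamer and 1.38 for the 10 without. The ranges overlapped widely, from 0.220 to 3.46 with a hexamer and from 0.596 to 2.36 without. The bases after the annotated ends, where CSTF2 is known to bind, were not analysed here.

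Structure and position gave similarly small differences among genes with 1 CPM in both libraries, apart from 1 single-exon gene. The median ratio was 1.10 for the 22 genes that share exon bases with another gene and 1.23 for the 17 that do not. It was 1.09 for the 11 genes within 5 kb of a coding gene and 1.15 for the 28 farther away. By exon length the medians were 1.15 in the shortest tercile, 1.28 in the middle and 1.03 in the longest. By GC content they were 1.04 in the lowest tercile, 1.25 in the middle and 1.11 in the highest. By exon number they were 1.24 for the 4 genes with 2 exons and 1.06 for the 34 with 3 or more. The only single-exon gene, LINC00216, had 3.22. By GENCODE type they were 1.17 for 24 lincRNA genes, 1.11 for 11 other noncoding genes and 0.970 for 4 protein-coding genes. The median was 1.11 for 3 genes that host a small RNA and 1.14 for 36 that do not.

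Genes at 0 in one library were described by their reads. LINC01285, a multi-exon lincRNA on chromosome X, had 11 IP reads and 0 Input reads, which makes it at least 10.8-fold higher in the IP against a floor of 3 Input reads. The exact interval of its ratio starts lower, at 7.42, and at 3.09 from read numbers divided by 2. Like the other genes at 0 in the Input, it was listed through its IP reads alone, so its direction was set by how it was listed. It was 1 of 6 genes at 0 in the Input, and 4 of those had 4 IP reads. Over all 14914 features, 492 were at 0 in the Input and 313 at 0 in the IP. LINC00339, LINC00526 and LINC00324 had 0 reads in the IP against 18, 14 and 13 in the Input. They were at least 2.03-, 1.58- and 1.47-fold lower in the IP, with the floor set at 3 IP reads. The exact intervals allow as little as 1.49-, 1.12- and 1.03-fold lower, in the same order. With read numbers divided by 2 their ratios reach up to 1.498, 2.05 and 2.26, so these intervals include no difference. All 3 were listed through their Input reads alone, which set their direction. LINC00526 shares 773 exon bases with LINC00667 on the opposite strand, which had 6 IP reads and 27 Input reads.

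Lists of LINC genes with a described role were small after matching. Of 9 with a described microprotein 5 were listed and 4 reached a mean of 1 RPKM, with 1 at least 2-fold higher (LINC-PINT, beside a background of 9.88%) and 1 lower (LINC00998, beside 6.83%). Of 22 described in liver or hepatocellular carcinoma 5 were listed and 3 reached the filter, LINC00261, LINC01419 and LINC00152, all within 2-fold on the scale with a pseudocount. The other 2 were LINC01134, with 8 IP and 2 Input reads and a ratio of 11.8 (2.36 to 114.3), and LINC00205, with 4 reads in each library. Both reached 1 CPM in the IP only, so a ratio above 1 was set by how they were listed. Of 11 with a described partner or inducer 5 were listed, LINC-PINT, LINC00662, LINC00304, LINC00963 and LINC00339, and only LINC-PINT reached the filter. LINC00304 had 12 IP and 7 Input reads, a ratio of 5.07 (1.84 to 15.2), and shares 1175 exon bases with ACSF3 on the same strand. It too was listed through its IP reads alone, and so had to be higher there. LINC00963 had 24 IP and 69 Input reads, a ratio of 1.03 (0.618 to 1.66).

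Named long noncoding RNAs outside the LINC series, most of them nuclear, were listed for comparison. Of 13 examined 11 were listed and 8 reached the filter, with 4 at least 2-fold above the Input, beside a background of 9.88%, and 0 as far below it, beside 6.83%, around a median of 0.82 on the log2 scale with a pseudocount of 1 RPKM. MALAT1, a nuclear speckle RNA, had 491.7 RPKM in IP RNA and 85.8 RPKM in Input RNA, a ratio of 5.73 (5.57 to 5.90). FIRRE and JPX, also nuclear, had ratios of 1.01 (0.763 to 1.33) and 1.13 (0.737 to 1.69). NORAD, formerly LINC00657 and mainly cytoplasmic, where it binds PUMILIO proteins, had 20.9 RPKM in IP RNA and 41.3 RPKM in Input RNA, a ratio of 0.507 (0.452 to 0.567).

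Against the other classes of the table, the LINC-named genes differed mainly in how they were listed. The share that reached 1 CPM in the IP only was 45.3%, against 7.47% of protein-coding genes, 32.6% of genes named as antisense to another and 35.2% of genes named only by a clone. Median reads over both libraries were 18 for LINC-named genes, 113 for protein-coding, 23 for antisense-named and 22 for clone-named genes. Where both libraries reached 1 CPM, the median ratio was 1.11 for LINC-named genes, 1.18 for protein-coding, 1.29 for antisense-named and 1.18 for clone-named genes.

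**Figure D4:**
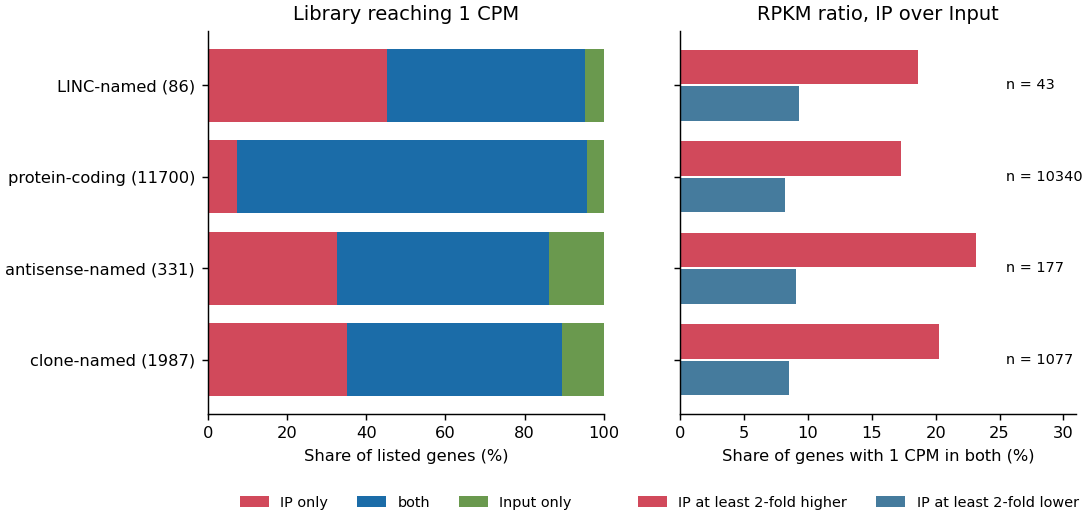
Left, share of listed genes (%) of each class that reached 1 CPM in the IP only, in both libraries or in the Input only, with the number listed in brackets. Right, share (%) of the genes with 1 CPM in both libraries whose RPKM ratio was at least 2-fold higher or lower in the IP: for LINC-named genes 18.6% were higher and 9.30% lower, and for protein-coding genes 17.3% and 8.24%.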

How the data were processed

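RNA was recovered with a commercial RIP kit, fragmented, copied from random hexamers and sequenced on an Illumina instrument, per the labels' protocols. FastQC 0.12.0 and hg38 are named in the submitters' processing notes; the sources used here do not give aligner, counter or annotation. The authors deposited, per the file headers, 1 RPKM value per library and the log2 fold change between IP and Input. That fold change served only to recover reads: solving both for whole numbers (tolerance 0.01 reads) gave reads for 14912 of 14914 features and all 86 LINC-named genes. Recovered lengths equalled the GENCODE v29 exon union for 74 of the 86. Ratios carry an exact conditional (Clopper-Pearson) 95% interval. Recovery and intervals were tested on simulated data. The protocols name no molecular identifiers, so PCR copies may count more than once, which the intervals ignore.

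The main scale was log2((IP + 1)/(Input + 1)) of RPKM, with a mean of at least 1 RPKM and a 2-fold threshold. The pseudocount understates changes of low genes. No test was made with 1 library per group. Genes named were those with that mean and at least 20 reads: the 10 highest and 10 lowest, the 6 with the highest Input RPKM, the 2 on each side of each threshold, genes at 0 with at least 10 reads in the other library, and all role-list members. Members and lists were chosen with earlier results of these data known. Near-identical transcripts (at least 200 bases at 97% identity) were sought with minimap2 2.31. Scripts ran in Python 3.11.15 with numpy 2.4.6, pandas 2.3.3 and scipy 1.17.1.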

Additional observations from a re-analysis of the deposited data

How the results depend on the processing

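The count of LINC-named genes at least 2-fold higher in the IP, 5 of 25, became 8 with a pseudocount of 0.1 RPKM (18.5% of all features were then higher) and 0 with 5 RPKM (1.88%). It was 3 after centring on the median of all features (6.92%), 3 of 19 with at least 20 reads (6.89%) and 3 of 43 with at least 1 CPM in each library (4.98%; added after seeing the data). The 3 of 43 is on the log2 scale with a pseudocount of 1 RPKM, and the plain RPKM ratio gave 8 of the same 43. The count was 4 of 12 with a mean of at least 2 RPKM (9.83%) and 7 of 86 with no filter (7.63%). It was 9 at a 1.5-fold threshold (26%) and 1 at 4-fold (1.53%). The count lower, 1, became 0 with a pseudocount of 5 RPKM (2.99% of all features) and 0 at 4-fold (1.51%). With depth counted without mitochondrially encoded features, which raised RPKM in both libraries so that 58 genes passed the filter, 17 were higher (16.5% of all features) and 3 lower (7.97%). The median log2 ratio, 0.23, was 0.37 at a pseudocount of 0.1 RPKM, 0.10 at 5 RPKM, 0.39 with a mean of at least 2 RPKM, 0.053 after centring, 0.52 without mitochondrial depth, 0.53 without genes that share exons and 0.11 with 1 CPM in each library. Minus the median of protein-coding genes it was 0.07, and 0.27 with a mean of at least 2 RPKM, 0.31 without mitochondrial depth and -0.020 with 1 CPM in each library. Minus that of antisense-named genes it was -0.10, and 0.016 without mitochondrial depth. Minus that of clone-named genes it was -0.13, and 0.16 with a mean of at least 2 RPKM, 0.0043 without mitochondrial depth and 0.064 with at least 20 reads. The cause of these moves was not tested.

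Even read numbers outnumbered odd ones: between 1 and 19 reads, 74.9% of IP and 71.8% of Input numbers over all features were even. With read numbers divided by 2 (added after seeing the data), the interval of 3 of the 43 genes lay above 1 (LINC-PINT, LINC00506 and LINC00969), of 1 below 1 (LINC00998), and of 39 included 1, against 9, 4 and 30 with all reads. The same calls were not counted over all features, so these numbers have no background. No paired analysis was possible because each group has 1 library. Depth is a further limit: 46 of the 86 genes had fewer than 20 reads.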
